A study of Papio hamadryas with 11 samples.

Results

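The miR-29 family was followed in the livers of near-term baboon fetuses (Papio hamadryas, 0.9 of gestation). Its 3 mature members, hsa-miR-29a-3p, hsa-miR-29b-3p and hsa-miR-29c-3p, were taken by name from the 1921 mature names of a known-miRNA table, of which 645 had at least 1 read. Small RNA had been sequenced from 11 livers. The CON group held 6 livers from fetuses of control mothers (replicates 1 to 3 female, 4 to 6 male), and the MO group held 5 livers from fetuses of obese mothers (replicates 1 to 3 female, 4 and 5 male). The labels give no treatment or genotype for any animal. They list each library as a sample of its own without an animal number, so p-values rest on the spread between libraries, part of which may be technical. Whole liver was sampled, so a lower level can mean fewer cells of a type or less miRNA per cell, and these cannot be told apart.

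The mature miR-29 miRNAs share a seed, the short 5′ stretch that recognises targets, and differ at few bases elsewhere. They come from a pair of genomic clusters, miR-29b-1 with miR-29a and miR-29b-2 with miR-29c, so that miR-29b-3p can arise from either. The family is known for repressing collagens, elastin and other matrix genes, and in hepatic stellate cells it is lowered when TGF-beta drives collagen production. It also represses the DNA methyltransferases DNMT3A and DNMT3B. In rodents it responds to insulin and glucose, and raised levels are known from liver, muscle and fat of diabetic animals.

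Reads on known miRNAs ran from 247288 to 319919 per CON library and from 660569 to 767137 per MO library, a ratio of means of 2.52. The libraries are numbered 55 to 60 in CON and 67 to 71 in MO, so a library batch and maternal obesity cannot be told apart and no within-batch value exists. All 5 hepatocyte marker miRNAs, miR-122-5p among them, passed the filter on low counts, and their pooled level was 426331 to 495874 CPM in CON, here as shares of the library total without further scaling, and 398663 to 483189 in MO. Of these markers 1 fell in MO, miR-885-5p (log2 -1.01, edgeR adjusted p = 0.00370). Over all 218 tested miRNAs, 10 rose (4.59%) and 14 fell (6.42%) in MO, against which the marker counts are to be read. Pooled mesenchymal and stellate markers (7 miRNAs, 1 of which rose) held 77867 to 95478 and 89968 to 148382 CPM on that scale. Most of this pool was a single miRNA, miR-143-3p (log2 0.36, edgeR adjusted p = 0.0534). The marker that rose was the much less abundant miR-145-3p (log2 1.39, edgeR adjusted p = 0.00229), while miR-145-5p stood at -0.09. Of the 7 log2 differences, 5 were positive and 2 negative. Pooled leukocyte markers (6 miRNAs, 5 tested, 1 of which fell) held 1094 to 2108 and 1015 to 1281. Pooled endothelial markers (2 miRNAs, 1 of which rose) held 8685 to 15694 and 12194 to 18056. Erythroid markers (4 miRNAs, 0 of which rose or fell) held 6555 to 17301 and 7017 to 14211. Biliary markers (5 miRNAs, 4 tested, 0 of which rose or fell) held 573 to 1556 and 721 to 1274. Neural markers (3 miRNAs, 1 tested, 0 of which rose or fell) held 60.8 to 206 and 65.8 to 78.2. Muscle markers (4 miRNAs, 0 tested) held 15.3 to 65.2 and 21.2 to 1011. The highest MO library thus lay far above all controls for muscle markers, and the cause was not tested.

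The miR-29 family was a minor part of the fetal liver profile, at 0.0249% of all known-miRNA reads. miR-29a-3p was the leading member and had the most reads of the 3 in each of the 11 libraries. It ranked between 102 and 137 by reads in a library, against 196 to 270 for miR-29b-3p and 186 to 260 for miR-29c-3p, among the 645 miRNAs with reads. Levels below are in CPM, reads scaled to a common library size, after TMM scaling, which corrects library totals for differences in composition.

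miR-29a-3p had 52 to 90 reads per CON library and 104 to 157 per MO library. In CON its lowest level was 185 CPM in replicate 6, its median 194 CPM and its highest 303 CPM in replicate 3. In the MO livers it stood at 157, 141, 205, 201 and 177 CPM in replicates 1 to 5. CON replicate 3 was high and the other 5 controls lay close together, from 185 to 199 CPM. The groups overlapped, since MO replicates 3 and 4 lay above those 5 controls, while MO replicates 1, 2 and 5 lay below every control.

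miR-29b-3p rested on 4 to 13 reads per CON library and 22 to 29 per MO library. Its CON levels ran from 14.7 CPM in replicate 2, through a median of 29.4 CPM, to 47.9 CPM in replicate 4. In MO it stood at 33.2, 38.2, 28.7, 38.0 and 36.1 CPM in replicates 1 to 5. All MO livers lay inside the range of the controls. The 4 reads of CON replicate 2 have an exact Poisson 95% interval of 1.09 to 10.2 reads, and the 13 of CON replicate 4 one of 6.92 to 22.2 reads. These intervals cover counting error only.

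miR-29c-3p had 5 to 17 reads per CON library and 15 to 23 per MO library. In CON it ran from 17.9 CPM in replicate 5, through a median of 33.5 CPM, to 55.1 CPM in replicate 6. In MO it stood at 24.2, 23.7, 30.1, 20.3 and 25.1 CPM in replicates 1 to 5, again inside the range of the controls. The 3 male controls held both the lowest and the highest values of this member (17.9, 18.4 and 55.1 CPM).

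**Figure D1:**
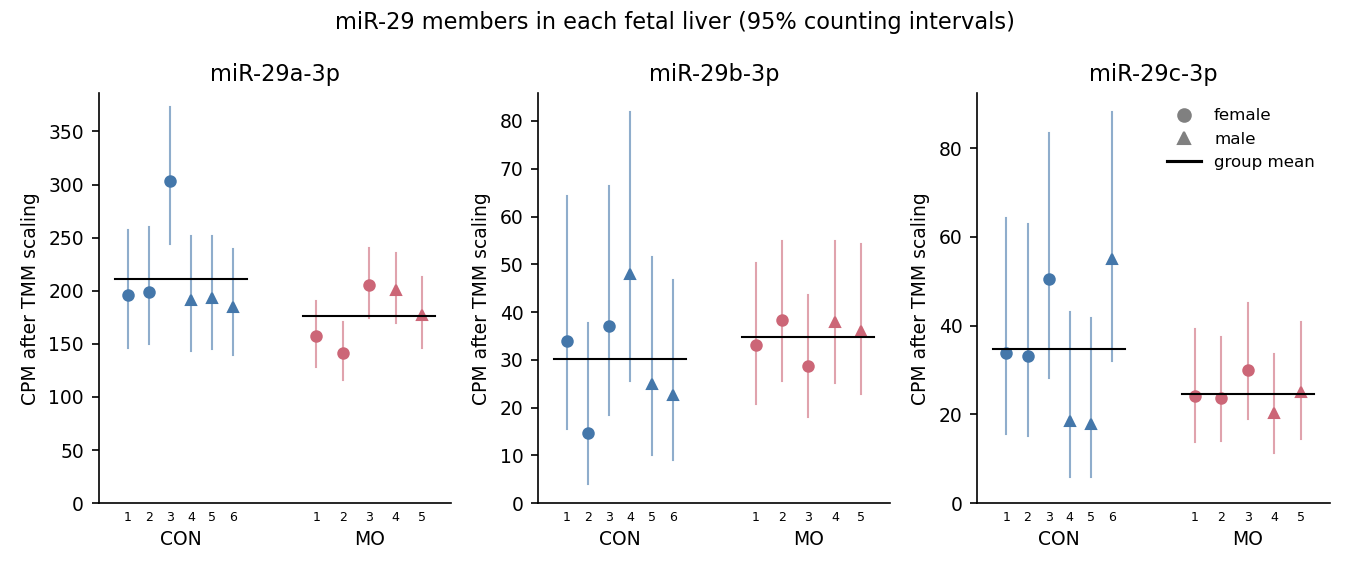
Level of each miR-29 member in every fetal liver, in CPM after TMM scaling (y axis), for CON replicates 1 to 6 and MO replicates 1 to 5 (circles, female; triangles, male). Vertical lines are exact Poisson 95% intervals and horizontal lines group means. CON replicate 3 stands out for miR-29a-3p at 303 CPM, and the MO points of miR-29b-3p and miR-29c-3p lie inside the control range.

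The observed spread of the minor members was below what counting error alone gives in MO (n = 5) and above it in CON (n = 6). An SD from so few livers is uncertain, and these gaps were not tested. For miR-29b-3p in CON the coefficient of variation was 39.1% where counting alone gives 34.4%, and in MO it was 11.4% where counting gives 20.1%. For miR-29c-3p the values were 44.8% against 31.7% in CON and 14.2% against 23.9% in MO. By sex they were 25.1% against 30.2% in CON females and 70.05% against 33.39% in CON males. For miR-29a-3p the spread was above counting error in both groups, at 21.5% against 12.9% in CON and 15.6% against 8.94% in MO. The CON value includes replicate 3 at 303 CPM, where the other controls lay at 185 to 199 CPM. In the 3 CON males, which do not include it, the spread was 2.32% where counting gives 13.6%.

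The reads came almost wholly from the 3p arms. The 4 opposite arms together had 19 reads over all libraries, beside 988 of miR-29a-3p, 175 of miR-29b-3p and 148 of miR-29c-3p. miR-29c-5p had 12 of the 19, with at most 3 in a library, miR-29a-5p had 3, and miR-29b-1-5p and miR-29b-2-5p had 2 each. The 2 precursor rows of miR-29b-3p carried identical counts in every library, so the table does not show which of its 2 precursors the reads came from. Because the members are near-identical, how the reads were shared among them is uncertain. Their sum was also tested, but it would count a read given to more than 1 member more than once. Some other names carried identical levels, such as miR-199a-3p and miR-199b-3p (means of 2455 CPM in CON and 2597 CPM in MO for each). Whether miR-29 reads were repeated in this way was not tested.

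Within the family, miR-29a-3p held 76.5% ± 4.33 of reads in CON (SD, n = 6) and 74.5% ± 3.4 in MO (SD, n = 5). miR-29b-3p held 11% ± 4.34 and 15.0% ± 2.83. miR-29c-3p held 12.5% ± 5.02 and 10.5% ± 1.56. The order of the minor members was not fixed. miR-29b-3p had more reads than miR-29c-3p in 2 of the 6 CON libraries, fewer in 3 and as many in 1, and had more in 4 of the 5 MO libraries. Their CON levels, 30.2 ± 11.8 and 34.8 ± 15.6 CPM, differed by less than the spread between replicates.

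**Figure D2:**
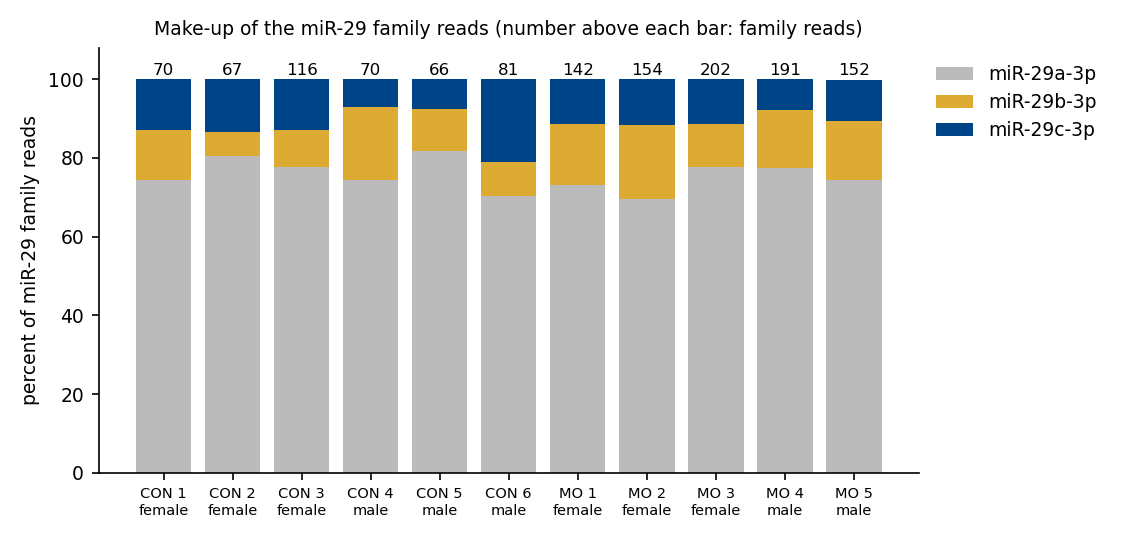
Percent of miR-29 family reads held by each member (stacked bars, y axis) in each library (x axis, with sex), with the number of family reads above the bar. miR-29a-3p holds 69.5% to 81.8% throughout, while miR-29c-3p reaches 21.0% in CON replicate 6 and miR-29b-3p falls to 5.97% in CON replicate 2.

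The study's main question was whether maternal obesity changes fetal liver miRNAs. Neither tested miR-29 member passed the threshold, an adjusted p of 0.05 in edgeR's quasi-likelihood test over 218 tested miRNAs. In the same comparison 24 of the 218 (11%) passed. miR-29a-3p stood at 211 ± 45.4 CPM in CON (SD, n = 6) and 176 ± 27.6 CPM in MO (SD, n = 5), a log2 difference of -0.26 (SE 0.17, 95% interval -0.63 to 0.11, edgeR adjusted p = 0.362). As a fold this is 0.835, with an interval of 0.647 to 1.08. Without CON replicate 3 the log2 difference was -0.11 (edgeR adjusted p = 0.695). miR-29b-3p stood at 30.2 ± 11.8 and 34.9 ± 3.97 CPM, a log2 difference of 0.21 (SE 0.25, 95% interval -0.33 to 0.75, edgeR adjusted p = 0.657), with a fold interval of 0.793 to 1.68. It was 0.11 without CON replicate 2, 0.13 without CON replicate 6 and 0.38 without CON replicate 4. Both differences lay near the middle of the table in size. The median absolute log2 difference over the 218 miRNAs was 0.23, and 100 of them were at least as large as that of miR-29a-3p and 117 at least as large as that of miR-29b-3p.

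miR-29c-3p failed the filter, which asks for 31.3 CPM before TMM scaling in at least 5 libraries. It reached that level in 3 CON and 0 MO libraries, where miR-29b-3p reached it in 3 and 4 and miR-29a-3p in all 11. Its mean was 34.8 ± 15.6 CPM in CON (n = 6) and 24.7 ± 3.50 CPM in MO (n = 5). When all 645 miRNAs with reads were fitted without a filter, its log2 difference was -0.42 (SE 0.35, 95% interval -1.13 to 0.29, edgeR adjusted p = 0.560). That fit has TMM factors of its own, unlike those behind the CPM means above. In it miR-29a-3p was at log2 -0.18 and miR-29b-3p at 0.28.

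The 3 members summed to 1 feature did not pass either. The sum stood at 272.5 ± 50.1 CPM in CON (n = 6) and 238.5 ± 23.7 CPM in MO (n = 5), with a log2 difference of -0.19 (SE 0.15, 95% interval -0.51 to 0.12, edgeR adjusted p = 0.432 over 217 features). CON replicate 3 was highest at 372.5 CPM, and the MO libraries held 217, 210.2, 261.5, 259 and 244 CPM in replicates 1 to 5. The 2 groups overlapped. Without CON replicate 3 the log2 difference was -0.08. The interval of the sum runs from 0.702 to 1.09 on the fold scale, so a change of the family to below 0.702-fold or above 1.09-fold lies outside it. That interval covers the spread between libraries only. It does not cover a shift between library batches, which cannot be told apart from maternal obesity.

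**Figure D3:**
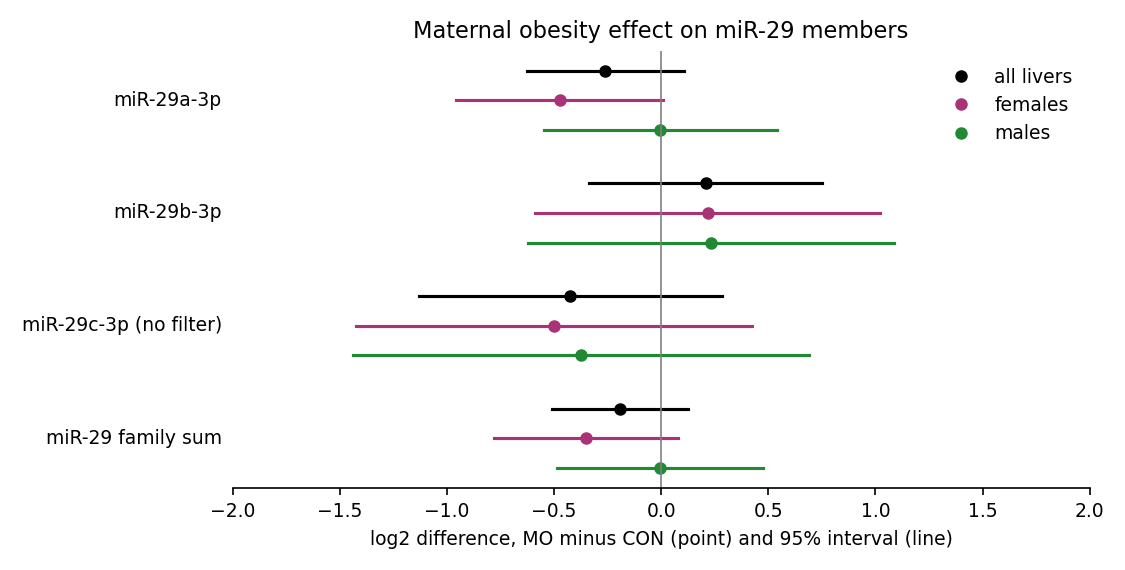
Log2 difference, MO minus CON (x axis; points with 95% intervals), for each member and for the family sum, in all livers, females and males. Values for miR-29c-3p come from the fit with no filter, which has TMM factors of its own. Every interval includes 0, the nearest to excluding it being miR-29a-3p in females (-0.96 to 0.01).

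**Figure D4:**
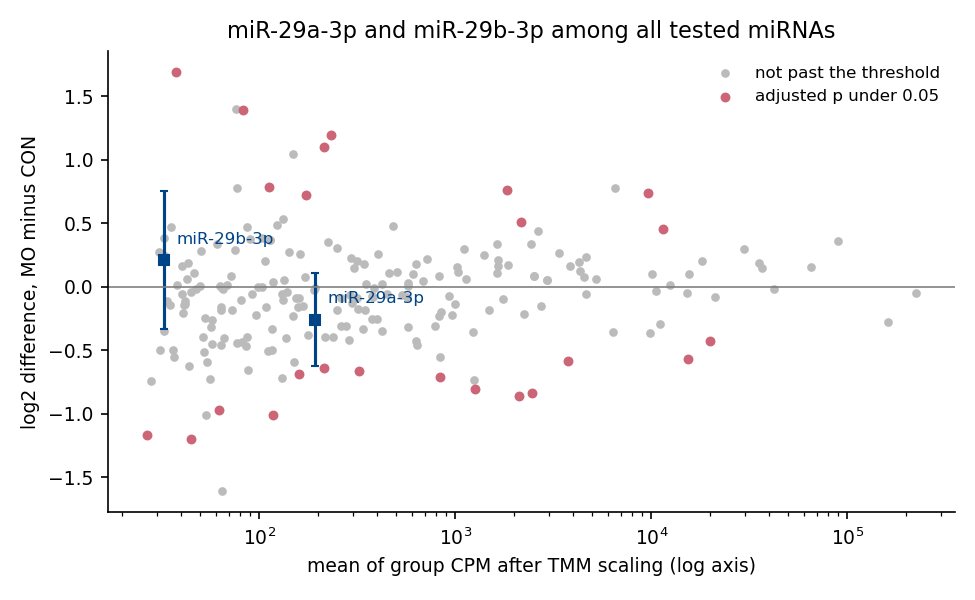
Log2 difference, MO minus CON (y axis), against the mean CPM of both groups (log x axis) for the 218 tested miRNAs, with the 24 past the threshold in red and miR-29a-3p (-0.26) and miR-29b-3p (0.21) as blue squares with 95% intervals. Both members lie within the cloud of miRNAs that did not pass.

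Ratios between members within a library do not depend on scaling to depth. The log2 ratio of miR-29b-3p to miR-29a-3p was -2.80 ± 0.55 in CON (SD, n = 6) and -2.31 ± 0.34 in MO (SD, n = 5). It was higher in MO by 0.49 and above the control mean in 4 of 5 MO livers (two-sided exact permutation test, p = 0.126, adjusted p = 0.279 over 3 pairs). Without CON replicate 4, the control with the highest ratio (-1.96), the difference was 0.66 and its adjusted exact permutation p was 0.0476. The ratio of miR-29b-3p to miR-29c-3p moved from -0.16 ± 0.95 to 0.49 ± 0.35, above the control mean in 5 of 5 MO livers (exact permutation test, p = 0.186, adjusted p = 0.279). The ratio of miR-29c-3p to miR-29a-3p was -2.64 ± 0.59 and -2.80 ± 0.27 (exact permutation test, adjusted p = 0.602). None of the 3 ratios passed with all 11 livers, and the control ratios rested on few reads of the minor member. The SD was larger in CON for all 3 ratios, whereas the permutation test takes the spread as alike in both groups. Its p-values are therefore not exact for a difference in means.

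**Figure D5:**
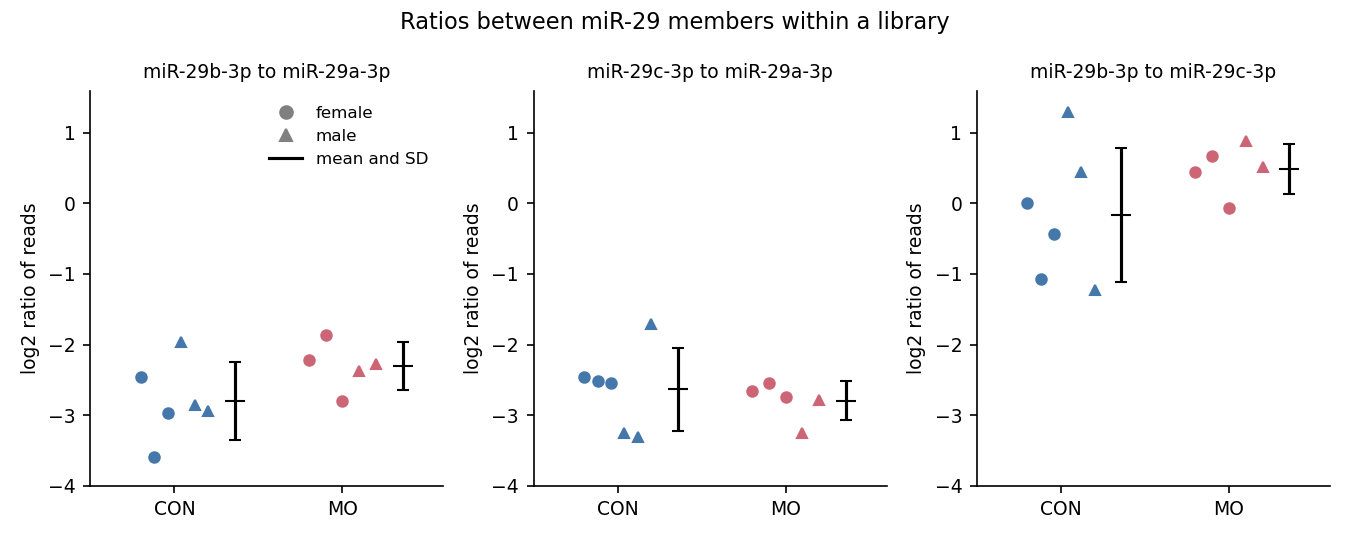
Log2 ratio of reads between members (y axis) in each library of CON and MO (circles, female; triangles, male), with the mean and SD of each group in black. The ratio of miR-29b-3p to miR-29a-3p runs from -3.60 to -1.96 in CON and from -2.81 to -1.87 in MO, and the groups overlap in all 3 panels.

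Among female fetuses, 13 of 218 miRNAs (5.96%) passed the threshold between MO and CON, and no miR-29 member was among them. The count fell to 0 without CON replicate 3 or MO replicate 2 and was 30 without CON replicate 4. CON replicate 4 is male, so it acts on this count only through the scaling and spread estimates shared across the model. In a fit to females only, 21 passed. miR-29a-3p stood at 233 ± 61.2 CPM in CON females (n = 3) and 168 ± 33.3 CPM in MO females (n = 3), a log2 difference of -0.47 (SE 0.22, edgeR adjusted p = 0.269). CON replicate 3, a female, was the highest of these livers, and without it the difference was -0.20. miR-29b-3p had a log2 difference of 0.22 in females (SE 0.37, edgeR adjusted p = 0.809). It was -0.0079 without CON replicate 2, 0.11 without MO replicate 2, 0.35 without CON replicate 1, 0.39 without MO replicate 3 and 0.50 without CON replicate 3.

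Among male fetuses, 9 of 218 (4.13%) passed, again with no miR-29 member. The count was 0 without CON replicate 1, 2 or 3 or without MO replicate 5. CON replicates 1 to 3 are female, so they act on this count only through the scaling and spread estimates shared across the model. In a fit to males only, 0 passed. miR-29a-3p stood at 190 ± 4.40 CPM in CON males (n = 3) and 189 ± 16.5 CPM in MO males (n = 2), with a log2 difference of -0.00323 (95% interval -0.54 to 0.54, edgeR adjusted p = 0.994). The difference was slightly above 0 under several other settings. miR-29b-3p had a log2 difference of 0.23 in males (SE 0.39, edgeR adjusted p = 0.792). It was 0.029 without CON replicate 6, 0.092 without CON replicate 5 and 0.63 without CON replicate 4.

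The maternal obesity effect was not shown to differ between the sexes. The male effect minus the female effect was 0.47 for miR-29a-3p (SE 0.33, edgeR adjusted p = 0.622) and 0.01 for miR-29b-3p (SE 0.55, edgeR adjusted p = 0.995). The value for miR-29a-3p was 0.21 without CON replicate 3, 0.19 with total counts and 0.084 in a single random thinning of libraries to the smallest total. In this test 0 of 218 miRNAs (0%) passed in edgeR and 0 in DESeq2, with 14 at an unadjusted p under 0.05. Males and females, compared with condition in the model, also gave 0 of 218 (0%) in edgeR and 0 in DESeq2, with 22 at an unadjusted p under 0.05. There the log2 difference, male minus female, was -0.07 for miR-29a-3p (edgeR adjusted p = 0.956) and 0.14 for miR-29b-3p (edgeR adjusted p = 0.956). The first became 0.07 without CON replicate 3.

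No pair of members showed a correlation over the 11 livers that passed a permutation test. For log2 CPM of miR-29a-3p and miR-29b-3p, Pearson's r was -0.0312 (permutation p = 0.851) and Spearman's rho -0.136 (permutation p = 0.688). For miR-29a-3p and miR-29c-3p, r was 0.469 (permutation p = 0.177, adjusted p = 0.446 over 3 pairs) and rho 0.273 (permutation p = 0.413). Without CON replicate 3 and MO replicate 2, the livers farthest from the median of miR-29a-3p, that r was 0.0256. Leaving out the extremes of miR-29a-3p also narrows its range, which by itself tends to bring r nearer to none. For miR-29b-3p and miR-29c-3p, r was -0.356 (permutation p = 0.298) and rho -0.409 (permutation p = 0.215), and r was -0.0157 without CON replicates 2 and 6. Within CON alone (n = 6) the 3 values of r were 0.286, 0.431 and -0.228 (exact permutation p = 0.603, 0.578 and 0.656). No correlation was computed within the 5 MO livers.

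Likeness of pattern was measured as the SD, over the 11 livers, of the log2 ratio between 2 miRNAs. A low value means a steady ratio, which holds for parallel levels but also for 2 miRNAs that each vary little. The measure is a description without a test. The miRNAs most like miR-29a-3p were miR-30c-5p (SD 0.20), miR-20a-5p (0.21) and miR-30b-5p (0.21), where the median over 217 miRNAs was 0.46. Those most like miR-29b-3p were miR-126-5p (0.30), miR-107 (0.31) and miR-30a-3p (0.32), where the median was 0.56. miR-29a-3p and miR-29b-3p had an SD of 0.52 against each other. That placed miR-29b-3p at rank 140 of 217 for miR-29a-3p, and miR-29a-3p at rank 80 for miR-29b-3p. The SD of log2 CPM was 0.27 for miR-29a-3p alone and 0.43 for miR-29b-3p alone, counting error included. The ranks therefore do not show whether the 2 members moved in parallel.

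Other miRNAs with the roles the family is known for were followed as 3 lists. The median log2 difference over all 218 tested miRNAs was -0.05, with 4.59% higher and 6.42% lower in MO. Of 15 tested miRNAs with roles in insulin or glucose handling, 1 rose, 1 fell and 13 did not pass, with a median of -0.01. miR-126-5p, an endothelial miRNA, rose (log2 0.46, edgeR adjusted p = 0.0476), and miR-378a-3p, which sits in an intron of the PGC-1beta gene, fell (-0.57, edgeR adjusted p = 0.0122). The call of miR-126-5p was lost with total counts (edgeR adjusted p = 0.0920), with sex as a covariate (0.0689) and without any 1 of 9 libraries, all but CON replicate 4 and MO replicate 5 (edgeR adjusted p 0.0533 to 0.114). That of miR-378a-3p held without each library in turn. miR-143-3p, which impairs insulin signalling in obese mice, stood at log2 0.36 (edgeR adjusted p = 0.0534), and passed without CON replicate 2 (0.0332), MO replicate 3 (0.0438) or MO replicate 4 (0.0354). The list also held miR-26a-5p, which improves insulin sensitivity in mouse liver, at log2 -0.01, a sign that turned under several settings.

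Of 14 tested miRNAs linked to fibrosis and collagen, 0 rose, 1 fell and 13 did not pass (median -0.15, with 10 negative). The list was chosen for fibrosis, but the member that fell was miR-146a-5p, known as a feedback inhibitor of inflammatory signalling (log2 -0.66, edgeR adjusted p = 0.0117). The call was lost without MO replicate 4 (edgeR adjusted p = 0.0523) and with no filter (0.0537). It is also a leukocyte marker, and the pooled leukocyte level given above reached 2108 CPM in CON and 1281 in MO, with overlapping ranges. The part of leukocytes in its change was not tested. The most abundant members of the list were miR-122-5p (log2 -0.28), miR-101-3p (-0.35) and miR-30a-5p (0.23), of which none passed. The 3 tested miRNAs that repress the maintenance methyltransferase DNMT1 did not pass, at log2 0.15 for miR-148a-3p, 0.08 for miR-148b-3p and 0.27 for miR-152.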

How the data were processed

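Illumina TruSeq small RNA libraries were made from miRNeasy extracts and read on a Genome Analyzer IIx, per the labels' protocols. The authors deposited raw read counts for each pair of mature miRNA and precursor, in a workbook named for miRDeep2. The deposited normalised columns are a signal, equal within 0.0050 to the count scaled by the table's library total (CPM); they were used only for this check. The submitters' processing notes name the build hg18, and the names are human, so baboon reads were matched to human miRNAs. The aligner and its mismatch limit were not given in the sources used here.

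Of the table, the 2234 rows appear again as a second copy (4468 rows), and each was used 1 time. A name on several precursors was represented by its row of highest total. Differences were tested with edgeR 4.0.16 in R 4.3.3 (quasi-likelihood, TMM, filterByExpr by group, Benjamini-Hochberg, threshold 0.05). The 218 tested miRNAs held at least 99.62% of each library's reads. Alternatives kept that set, except the fit with no filter. Intervals for differences are 95% intervals from the moderated degrees of freedom. Ratios used an offset of 0.5 reads and exact permutation over 462 splits in scipy 1.17.1, and correlations a prior count of 1. The fitting code was tested on simulated data. DESeq2 1.42.0 was an alternative. The rule for named miRNAs took the members, their opposite arms, the 3 most alike miRNAs per tested member, and the most abundant 3 and all called members of each list. Members and lists were chosen with earlier results of these data known. A table of predicted miRNAs, which holds no member, was not used.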

Additional observations from a re-analysis of the deposited data

Results flagged for a closer look

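The level of miR-29a-3p in CON replicate 3, 303.3 CPM after TMM scaling, lay far from the other controls, the nearest of which stood at 199 CPM. The gap was 0.88 of the whole range of the 6 controls, above Dixon's critical value of 0.625. The family sum in the same liver, 372.5 CPM against 267 CPM in the next control, stood apart as well (0.764 of the range). This liver rested on 90 reads of miR-29a-3p (exact Poisson 95% interval 72.4 to 111). The 2 values are not independent, since miR-29a-3p makes up most of the sum. Of 14 groups of values tested in this way 2 were flagged, and chance flags about 1 in 20.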

How the results depend on the processing

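Of 309 values of the members, the family sum and the ratios under other settings, 1 passed the threshold: the ratio of miR-29b-3p to miR-29a-3p without CON replicate 4. In 38 the sign turned, and 36 of those were smaller than 0.3. The cause was not tested. Over both sexes, miR-29b-3p was at log2 -0.11 when libraries were thinned to the smallest total. Reads were thinned at random a single time, so all thinned values include the chance of that draw. In males only, miR-29a-3p was at 0.030 and the family sum at 0.017. The effect in males turned to 0.026 (RLE), 0.057 (no filter), 0.027 (DESeq2) and 0.052 (summed precursor rows) for miR-29a-3p, and to 0.015, 0.035, 0.015 and 0.039 for the sum. With summed precursor rows each read of miR-29b-3p counted 2 times in the family sum, since its 2 rows are identical. Thinned, miR-29b-3p was at -0.54 in males, -0.22 for males against females and -0.67 for the male effect minus the female effect. That last value was -0.26 with total counts, -0.031 with no filter and -0.00093 in DESeq2.

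Leaving out each library in turn gave -0.30 to -0.11 for miR-29a-3p, 0.11 to 0.38 for miR-29b-3p and -0.27 to -0.08 for the sum. The effect in females ran from -0.00788 to 0.50 for miR-29b-3p. The effect in males ran from -0.068 to 0.082 for miR-29a-3p, from 0.029 to 0.63 for miR-29b-3p and from -0.063 to 0.042 for the sum. Males against females ran from -0.14 to 0.074 for miR-29a-3p and from -0.12 to 0.072 for the sum, and the male minus the female effect from 0.21 to 0.58 for miR-29a-3p and from -0.26 to 0.42 for miR-29b-3p. The ratio of miR-29c-3p to miR-29a-3p ran from -0.30 to 0.021, and that of miR-29b-3p to miR-29a-3p from 0.33 to 0.66.

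The count past the threshold was 24, and 0 in males only. In females (13) it was 8 with summed precursor rows and 6 thinned, and 0 to 30 without 1 library (0 without CON replicate 3 or MO replicate 2, 1 without CON replicate 2 or MO replicate 1, 3 without CON replicate 1, 8 without MO replicate 4 or 5, 30 without CON replicate 4). In males (9) it was 27 with no filter and 18 in DESeq2, and 0 to 12 without 1 library (0 without CON replicate 1, 2 or 3 or MO replicate 5, 1 without MO replicate 3, 2 without MO replicate 1 or 4, 3 without CON replicate 4, 5 without CON replicate 6). Livers of the other sex act on these counts only through the scaling and spread estimates shared across the model. With no filter the count was 6 for males against females and 11 for the difference between the sexes, each 0 with the filter. With a replicate block the main count was 15 and miR-29a-3p stood at -0.29. Whether equal numbers mark paired livers is not known, and the numbers follow sex in both groups. Same-numbered livers correlated above 0.1 in 2 of 5 pairs, and 1 of 5 MO livers correlated best with its own number. So few pairs cannot exclude a pairing. Depth limits the minor members most, at 4 to 17 reads per CON library.

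For the named miRNAs of the role lists the same settings were chosen after seeing the data. miR-143-3p passed with RLE factors (edgeR adjusted p = 0.0319), total counts (0.0490), summed precursor rows (0.0457) and thinning (0.0264), and in DESeq2 (0.0158). miR-126-5p (edgeR adjusted p = 0.183) and miR-146a-5p (0.0777) lost their call with a replicate block, and miR-146a-5p also in females only (0.104). In males only neither of them nor miR-378a-3p passed. miR-122-5p passed in females only (log2 -0.67, edgeR adjusted p = 0.0219) and was at 0.22 in males only. miR-26a-5p was at 0.022 with RLE factors, 0.067 with no filter, 0.022 in DESeq2, 0.015 with summed rows, 0.054 thinned and 0.37 in males only, and from -0.13 to 0.11 without 1 library. In females only miR-148a-3p was at -0.15 and miR-148b-3p at -0.21, and the latter ran from -0.039 to 0.19 without 1 library. The cause of these changes was not tested.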
